A study of Mus musculus with 6 samples.

Results

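The sites described here were 236 cytosines of nuclear-encoded transcripts in mouse cortical neurons that kept a cytosine call after bisulfite treatment, stood apart from other such cytosines and were followed by guanine at both the second and the third base downstream. A position passed when both libraries of 1 or more time points called it a methylated cytosine, covered it with 20 or more reads, 6 or more of them methylated, and gave it a level of 10.0% or above. In all, 3090 positions passed, of which 864 were mitochondrial, 1732 lay in nuclear clusters and 258 were isolated nuclear cytosines in other contexts. Isolated means that fewer than 3 other passing positions lay within 75 nt on the same strand, and 229 of the 236 sites had none, 6 had 1 and 1 had 2. The sites were thus chosen by their measured levels and reads, and these are given as a description. Changes between a pair of time points were tested at those sites that passed at the remaining time point, whose libraries take no part in the test.

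RNA bisulfite sequencing of poly(A) RNA followed 6 libraries, 2 biological replicates at each of 0, 2 and 6 h of membrane depolarisation. The neurons came from cortices of wild-type C57BL/6 embryos (E16.5), with male and female embryos pooled, and were cultured for 7 days. All 6 cultures, the 0 h controls included, were silenced overnight with 1 µM tetrodotoxin, a sodium channel blocker, and 100 µM DL-AP5, an NMDA receptor antagonist. The 2 h and 6 h cultures then received 55 mM KCl, which opens voltage-gated channels and drives calcium entry. Such cultures are bulk samples, so a lower share of methylated molecules within each cell and a lower share of cells carrying them cannot be told apart.

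In 5-methylcytosine (m5C) a methyl group sits on the pyrimidine ring of cytosine and protects it from deamination by bisulfite, so that a methylated base is still read as C and an unmethylated one as T. The level of a site is the percentage of its reads with C. NSUN2, a nuclear methyltransferase best known for modifying tRNAs, also acts on messenger RNA, where its sites typically carry guanines just downstream and lie at the foot of a stem-loop. No molecular identifiers are named in the sources used here, so the intervals and exact tests below cover counting error only.

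The windows of 21 nt around a selection of the sites described below are shown, among them sites with high levels and sites that changed with time. The methylated cytosine and the guanines at +2 and +3 that the selection required are in capitals, and coordinates are on GRCm38. Stmn3 is included as the site with the deepest coverage.
Meg3 (chr12:109567485-109567505, plus strand): ggaagagacgCaGGgctcttc
Mast3 (chr8:70792347-70792367, minus strand): caggccgaatCcGGccgatct
Clec2l (chr6:38680733-38680753, plus strand): gaaaacagccCaGGgctagag
Lrrc45 (chr11:120720709-120720729, plus strand): ctcccgtatcCgGGacgaaga
Rela (chr19:5647573-5647593, plus strand): ggtgctttcgCaGGagcatta
Zbed3 (chr13:95336474-95336494, plus strand): ccagcgggagCtGGagctgga
Casc3 (chr11:98832468-98832488, plus strand): ctggacaaccCaGGcgtcaga
Kcnc1 (chr7:46430672-46430692, plus strand): atatctactgCgGGagcatat
Rnf157 (chr11:116359287-116359307, minus strand): tggctttgatCtGGaccgtga
Yipf1 (chr4:107359672-107359692, plus strand): ccagcatcagCaGGaaactga
Adcy1 (chr11:7170420-7170440, plus strand): ctggaattctCgGGaggccct
Clcn3 (chr8:60912338-60912358, minus strand): cagggaaaatCtGGaggtgtg
Stmn3 (chr2:181306557-181306577, minus strand): gctccttaggCaGGagatatg

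A further set of 27 nt windows, from 6 nt upstream of the cytosine to 20 nt downstream, is shown for sites whose next 5 bases were predicted to pair with 5 bases across a short loop. Here the capitals mark the cytosine, the arm at +1 to +5 and the opposite arm. Of these letters the selection rule fixed the cytosine and the G at +2 and +3.
Ranbp9 (chr13:43481050-43481076, minus strand): gctccgCCGGGCcgcgcgGCCCGccgc
Usp3 (chr9:66592937-66592963, minus strand): cagtgcCGGGTCagaagcGACCCcaga
Samd14 (chr11:95025125-95025151, plus strand): tggagaCAGGAGacagctgtgtCTCCT
Trim2 (chr3:84190979-84191005, minus strand): cacaacCTGGGGaccatCCTCAccact
Wdr48 (chr9:119925421-119925447, plus strand): gacctgCAGGCTgccacccacAGCCTg
Lmtk3 (chr7:45793860-45793886, plus strand): ggggaaCAGGGTaccgcACCCTgggcc
Aes (chr10:81565598-81565624, plus strand): tctgctCTGGGTtctcagACCCAcctc
Gtf3a (chr5:146948837-146948863, plus strand): gttcgtCGGGGCctgtgaggGCCCCgc
Glg1 (chr8:111155330-111155356, minus strand): gacagcCAGGGTtacagagaaACCCTg
Unc5d (chr8:28719758-28719784, minus strand): atcactCGGGGActtTCCCCcatggaa
Sema3f (chr9:107685391-107685417, minus strand): tccgtaCAGGCGctccctacCGCCTca
Grin2b (chr6:135713906-135713932, minus strand): gccctgCAGGAGtcaTTCCTggggagg

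The deposited lists hold positions with at least 10 reads and at least 1 methylated read, so a position without any C read is not listed. Summed cytosine coverage was 1637706778 to 2352246636 per library. At deeply covered cytosines the share of unconverted reads was 0.0837% to 0.0869% in 5 libraries and 0.115% in replicate 1 of 6 h. All 6 neuronal marker genes were listed in each library and took 0.844% to 1.14% of the coverage, with the 0 h libraries highest. Astrocyte markers (4 of 4 listed) took 0.0823% to 0.123%, most at 0 h and least at 6 h, oligodendrocyte markers (3 of 4) took 0.0177% to 0.0197% at 2 h, below 0.0310% to 0.0362% at 0 h and 0.0377% to 0.0435% at 6 h, and microglial markers took at most 0.00184%. Mog, Csf1r and C1qa were not listed in any library. The part of these cell-type differences in the results below was not tested.

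Most of the sites were methylated in a minority of molecules, and the levels were higher at 2 h and 6 h than at 0 h. Of the 236 sites, 217 were listed in all 6 libraries and 201 had at least 20 reads in each. Over these 201 sites the median level was 10.6% in both libraries before KCl, 17.0% and 17.8% in the 2 h libraries, and 15.2% and 14.02% at 6 h. No library of the later time points had a median as low as that of a 0 h library, and within each time point the replicates lay close together. These medians include sites admitted through the time point at which they were high. In each library 170 to 199 listed sites were below 30% and 8 to 23 were above 50%. Median coverage of the sites was 140 to 189.5 reads per library, with single sites between 10 and 4768.

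**Figure D1:**
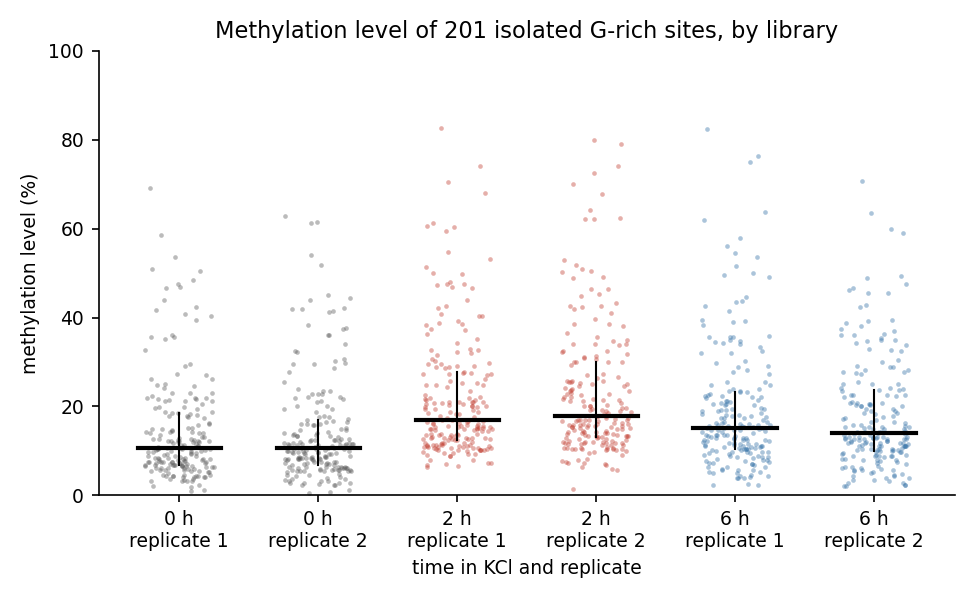
Methylation level (percent of reads with C) of the sites with at least 20 reads in all 6 libraries, by library and hours of KCl; each point is a site and the bar is the library median. The medians were 10.6% in both libraries at 0 h, 17.0% and 17.8% after 2 h, and 15.2% and 14.02% after 6 h, and most points lie below 30%.

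The highest mean levels with at least 20 reads throughout belonged to genes of varied function. Meg3, an imprinted maternally expressed long non-coding RNA, held the site with the highest mean (chr12:109567495, plus strand, non-coding exon), at 69.2% and 61.5% before KCl, 70.4% and 80% after 2 h and 76.4% and 70.7% after 6 h. Mast3, which encodes a microtubule-associated serine/threonine kinase, had a site in its 5′ UTR (chr8:70792357, minus strand, 5′ UTR) at 58.6% and 62.7% before KCl, 82.6% and 79.1% after 2 h and 82.4% and 60% after 6 h, with 23 to 51 reads. Ranbp9, a scaffold of an E3 ubiquitin ligase complex, carried one in its 5′ UTR (chr13:43481070, minus strand, 5′ UTR) at 50.5% and 51.8% before KCl, 74.1% and 74.1% after 2 h and 62% and 48.9% after 6 h. These 3 sites were read as C in most molecules in all but 1 of the libraries, in which Ranbp9 stood at 48.9%. The site in Lrrc45, a centrosomal protein (chr11:120720719, plus strand, coding sequence), stood at 35.6% and 45% before KCl, 47.2% and 62.1% after 2 h and 57.9% and 63.6% after 6 h. That in Rela, the p65 subunit of NF-κB (chr19:5647583, plus strand, 3′ UTR), stood at 41.8% and 38.3% before KCl, 59.6% and 67.8% after 2 h and 51.5% and 34.7% after 6 h. The Samd14 site (chr11:95025131, plus strand, 3′ UTR) stood at 42.5% and 41.4% before KCl, 53.1% and 53% after 2 h and 53.6% and 47.6% after 6 h, and its 865 to 1196 reads made it one of the more precisely measured. Among these, Meg3, Lrrc45 and Samd14 had both later time points above 0 h in every library, whereas Rela was high at 2 h and spanned its 0 h range at 6 h.

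Several sites with high means had few reads or replicates that stood far apart. Nisch, which encodes the integrin-binding protein nischarin (chr14:31186632, minus strand, 3′ UTR), was almost fully methylated at 94.4% and 90% before KCl, 100% and 100% after 2 h and 80.8% and 92.3% after 6 h, but on 14 and 19 reads at 2 h. Hdgfl3 (chr7:81934215, minus strand, 5′ UTR) passed only at 0 h, with 91.2% and 57.1% before KCl, 75.8% and 82.4% after 2 h and 77.8% and 80% after 6 h, on 17 to 34 reads. The intronic site in Pvt1, a long non-coding RNA gene beside Myc, had levels of 47.6% and 61.2% before KCl, 48.1% and 48.8% after 2 h and 63.8% and 25% after 6 h. An intergenic site on chromosome 19 (position 59165280) had 53.6% and 36% before KCl, 46.7% and 72.4% after 2 h and 50% and 46.6% after 6 h. The replicates of Pvt1 at 6 h and of the intergenic site at 2 h differed by more than their time points did. The lowest mean coverage belonged to a position antisense to a gene on chromosome 11 (102402334), with 14 to 35 reads and levels from 23.5% to 65.2%.

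The deepest site was not called. In Stmn3, a stathmin-family regulator of microtubule dynamics (chr2:181306567, minus strand, 3′ UTR), the levels were 22.2% and 22% before KCl, 22.6% and 21.6% after 2 h and 22.4% and 23.7% after 6 h on 2771 to 4768 reads. The range of all 6 libraries was thus narrow at the coverage at which the exact test is most sensitive, and no pair of time points passed the threshold (exact test adjusted p = 0.613 for 0 h against 6 h and 0.486 for 2 h against 6 h).

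By place in the transcript, 95 sites (40.3%, Wilson 95% interval 34.2% to 46.6%) were in coding sequence, 88 (37.3%, 31.4% to 43.6%) in 3′ UTRs and 21 (8.90%, 5.89% to 13.2%) in 5′ UTRs, with 9 in non-coding exons, 5 in introns, 8 antisense to a gene and 10 intergenic. The reference for these shares was 16710 cytosines in the same context whose level was below 1% in all 6 libraries. Of those, 77.9% were in coding sequence, 18.05% in 3′ UTRs and 2.30% in 5′ UTRs, so the methylated sites were more often in both UTRs and less often in coding sequence. Isolated sites outside the context divided much as the sites did, with 38.8% in coding sequence, 33.3% in 3′ UTRs and 10.1% in 5′ UTRs. Median levels were 20.2% in 5′ UTRs, 15.2% in 3′ UTRs and 13.6% in coding sequence, and 44.7% over the 5 intronic sites. Of the 204 sites in mRNA exons, 14 (6.86%) lay within 100 nt of the start codon, beside 6.47% of the reference. The reference requires deep reads in all libraries, which the sites did not, and this difference in depth goes with the comparison. Each reference cytosine also kept at least 1 C read in all 6 libraries, since positions without one are not listed. The part of both in the contrasts with the reference, here and below, was not tested.

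The base just after the cytosine, which the rule left free, was A at 144 sites (61.0%) and G at 55 (23.3%), with C at 16 and T at 21. A purine at +1 was thus found at 199 sites (84.3%, 79.1% to 88.4%), compared with 47.8% of the reference cytosines and 69.8% of the isolated sites outside the context. Another guanine followed at +4 at 125 sites (53.0%, 46.6% to 59.2%), against 20.6% of the reference. Among the isolated sites outside the context it was at least as frequent (60.1%). The combination of A at +1 with G at +4 occurred at 30.1% of the sites, 6.30% of the reference and 20.5% of the isolated sites outside the context. Sites with G at +4 had a median level of 13.9% and those without it 16.54%. On the upstream side a pyrimidine stood at −1 in 61.0% of the sites and 51.7% of the reference.

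Folding of the spliced sequence 75 nt to either side placed the cytosine less often in a pair, and the bases after it more often, than in the reference. At 213 exonic sites the median probability that the cytosine was paired was 0.598 (interquartile range 0.145 to 0.925), compared with 0.840 for 16649 reference cytosines and 0.654 for the isolated sites outside the context. The base at −2 was mostly unpaired, with a median of 0.214 against 0.650, and 0.411 at the isolated sites outside the context. The stretch from +1 to +5 was more often paired than in the reference (0.795 against 0.695), and that from +7 to +9 less often (0.362 against 0.597). At the isolated sites outside the context these medians were 0.783, close to that of the sites, and 0.496. A stem of 5 bp starting at +1 and closing a loop of 3 to 12 nt had a summed probability above 0.5 at 78 of 213 sites (36.6%), compared with 7.74% of the reference and 29.5% of the isolated sites outside the context. The contrast held within each part of the mRNA, with a mean probability of 0.390 against 0.091 in coding sequence, 0.360 against 0.101 in 3′ UTRs and 0.234 against 0.108 in 5′ UTRs. At 74 sites a single loop length had a probability above 0.5, and loops of 6 nt (21 sites) and 5 nt (14 sites) were the most frequent. The windows of Trim2 and Lmtk3 printed above have 5 nt between the arms, and those of Ranbp9, Usp3 and Aes have 6 nt. Sites with the stem had a median level of 15.7% and the other folded sites 15.2%. A predicted fold is a description of the sequence, and the structure of these RNAs was not measured. Folded at 70 °C, the median for the cytosine was 0.464, and 0.475 at the isolated sites outside the context. The reference was not folded at that temperature.

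**Figure D2:**
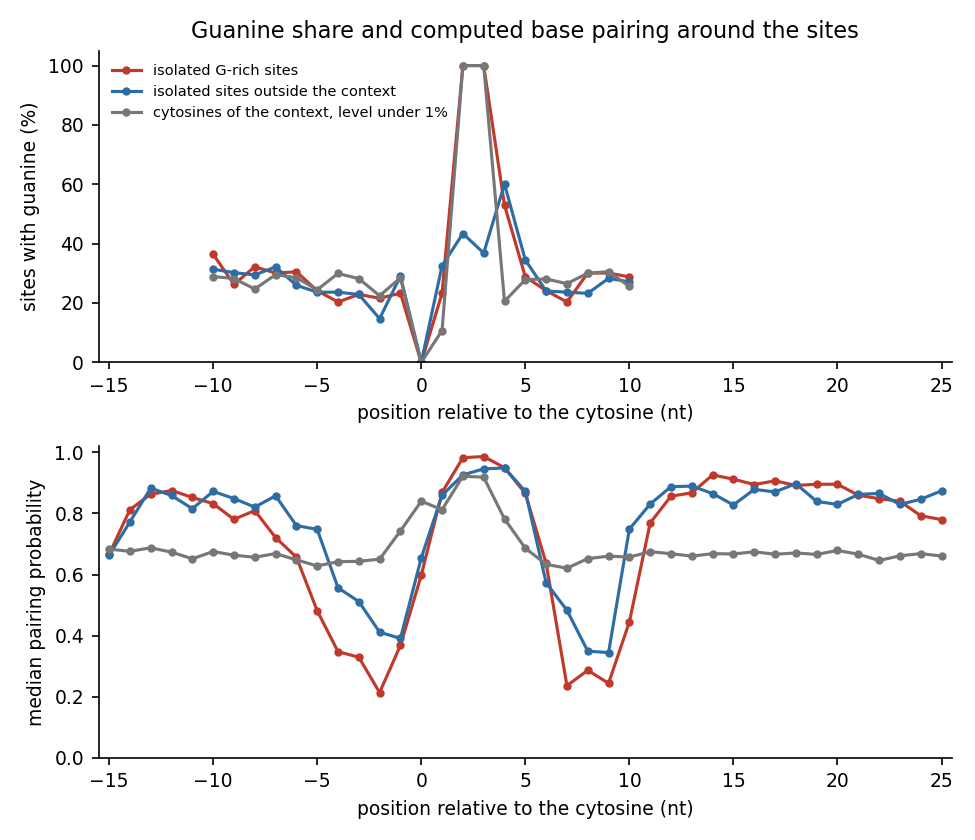
Share of sites with G at each position around the cytosine (percent) and median predicted pairing probability by position, for the 236 sites (213 folded), the isolated sites in other contexts and the reference cytosines of the same context. The sites separate from the reference in pairing at −2 (0.214 against 0.650) and over +1 to +5 (0.795 against 0.695), and in G at +4 (53.0% against 20.6%). At the isolated sites in other contexts these values were 0.411, 0.783 and 60.1%.

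Between 0 h and 2 h nearly all sites that changed were higher at 2 h. The 3 comparisons share libraries and are not independent of each other. Among 136 sites that passed at 6 h and had at least 10 reads in the 4 libraries, 64 changed, 62 to a higher and 2 to a lower level (Fisher's exact test, two-sided, of reads added over replicates, with Benjamini-Hochberg adjustment over all passing positions tested). The share called among all positions tested was 6.31%, with 5.51% higher and 0.8% lower (19 of 2376, but 6 without replicate 1 of 0 h and 46 without replicate 2 of 2 h), while isolated sites outside the context were called at 69 of 146. The remaining 100 of the 236 sites were not tested in this comparison. In 100 of the 136 both 2 h libraries lay above both 0 h libraries, in 5 both lay below and in 31 they overlapped, where 17.3% of all positions tested lay wholly above and 9.55% wholly below. The median difference over 132 sites with at least 20 reads was 6.78 percentage points (interquartile range 3.54 to 13.6), with 117 higher and 15 lower, and the library medians went from 13.2% and 12.7% to 20.9% and 22.2%. With 2 libraries against 2 the exact permutation test of those medians cannot go below its smallest p, 0.333, which it reached.

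Trim2, an E3 ubiquitin ligase that binds neurofilament light chain, had the largest increase among the called sites (chr3:84190999, minus strand, coding sequence). Its levels were 18.8% and 21% before KCl, 60.6% and 64.1% after 2 h and 32% and 28.1% after 6 h, on 312 to 651 reads. The 2 h libraries stood far above all others (42.4 percentage points above 0 h, exact test adjusted p = 8.38e-73), and the 6 h libraries were again above 0 h (exact test adjusted p = 7.32e-06). Zbed3, a BED-type zinc finger protein, followed the same course in its coding sequence (chr13:95336484, plus strand, coding sequence), at 15.8% and 15.8% before KCl, 60.3% and 51.9% after 2 h and 22.2% and 14.3% after 6 h (exact test adjusted p = 4.41e-12 for 0 h against 2 h). Here the 6 h libraries lay on either side of 0 h. Casc3, a core component of the exon junction complex, held a 3′ UTR site (chr11:98832478, plus strand, 3′ UTR) at 24.7% and 9.92% before KCl, 51.4% and 49.2% after 2 h and 21.4% and 20.6% after 6 h (exact test adjusted p = 4.64e-15). Its 0 h replicates stood far apart, yet both were below every 2 h value. Kcnc1, the voltage-gated potassium channel Kv3.1 (chr7:46430682, plus strand, 3′ UTR), had 7.27% and 5.56% before KCl, 37.3% and 38.6% after 2 h and 12.3% and 21.1% after 6 h (exact test adjusted p = 1.21e-06). The intronic site of Map4, a microtubule-associated protein (chr9:110080499, plus strand, intron), had 44% and 28.6% before KCl, 74.1% and 76.9% after 2 h and 22.6% and 24.2% after 6 h on 13 to 33 reads (exact test adjusted p = 0.0255). Its call was lost whenever any single library was left out, with adjusted p from 0.0673 to 0.232 by the same exact test.

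Large increases at 2 h were also found at sites named for their level or the function of their gene. The Ranbp9 site was higher by 22.9 percentage points (exact test adjusted p = 3.22e-08) and the Rela site by 23.7 (exact test adjusted p = 4.23e-08). Wac, an adaptor protein acting in histone H2B ubiquitination, had a 5′ UTR site on chromosome 18 (position 7869434) at 51% and 27.7% before KCl, 68% and 62.3% after 2 h and 39.1% and 38.2% after 6 h (exact test adjusted p = 6.01e-09). In all 3 the 2 h libraries were above every 0 h library. Adcy1, the calcium-stimulated adenylyl cyclase of neurons (chr11:7170430, plus strand, 3′ UTR), had 29% and 29.6% before KCl, 49.8% and 50.3% after 2 h and 49.5% and 42.4% after 6 h (exact test adjusted p = 1.23e-21). Clcn3, an endosomal chloride/proton exchanger (chr8:60912348, minus strand, 3′ UTR), had 10.4% and 11.5% before KCl, 25.4% and 23.9% after 2 h and 25.5% and 20.8% after 6 h (exact test adjusted p = 1.56e-27). Both stayed up at 6 h, and their replicates at 0 h and 2 h lay within a few points of each other. Slc43a2, an amino acid transporter (chr11:75577350, plus strand, 3′ UTR), had 21.2% and 22.1% before KCl, 54.7% and 43.3% after 2 h and 39.4% and 22.6% after 6 h (exact test adjusted p = 1.16e-07). Btbd9, a BTB-domain protein (chr17:30216948, minus strand, 3′ UTR), had 16.2% and 21.9% before KCl, 46.9% and 44.7% after 2 h and 27.3% and 15.5% after 6 h (exact test adjusted p = 0.00755).

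The 2 sites that were lower at 2 h were in Wdr48, the partner that activates the deubiquitinase USP1, and in Rell2, a protein related to the TNF receptor family member RELT. Wdr48 (chr9:119925427, plus strand, 3′ UTR) had 48.4% and 44% before KCl, 38.7% and 31.3% after 2 h and 44.6% and 30.5% after 6 h (exact test adjusted p = 0.00363). Rell2, in coding sequence on chromosome 18 (position 37958151), had 18.4% and 15.8% before KCl, 6.73% and 11.7% after 2 h and 14.6% and 11.7% after 6 h (exact test adjusted p = 0.000593). Both decreases were modest beside the increases above and both were lost when 1 library was left out, to an adjusted p of 0.309 or 0.298 for Wdr48 (without 0 h replicate 1 or 2 h replicate 2) and of 0.132 or 0.283 for Rell2 (without 0 h replicate 1 or 2 h replicate 1) by the exact test. The exact test does not hold the spread between replicates. A linear model that does, limma weighted by counting precision, called 41 of the 136 sites, all higher (3.66% of all positions tested), and neither Wdr48 nor Rell2 (adjusted p = 0.141 and 0.125). A moderated quasi-binomial model called 31 (2.82%). Fitted over isolated nuclear positions alone, the former called 58 and the latter 59 (39.4% and 42.9% of those tested). Both of these fits called Wdr48 (adjusted p = 0.0420 with limma and 0.0367 with the quasi-binomial model) and Rell2 (0.0346 and 0.0230) as lower.

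**Figure D3:**
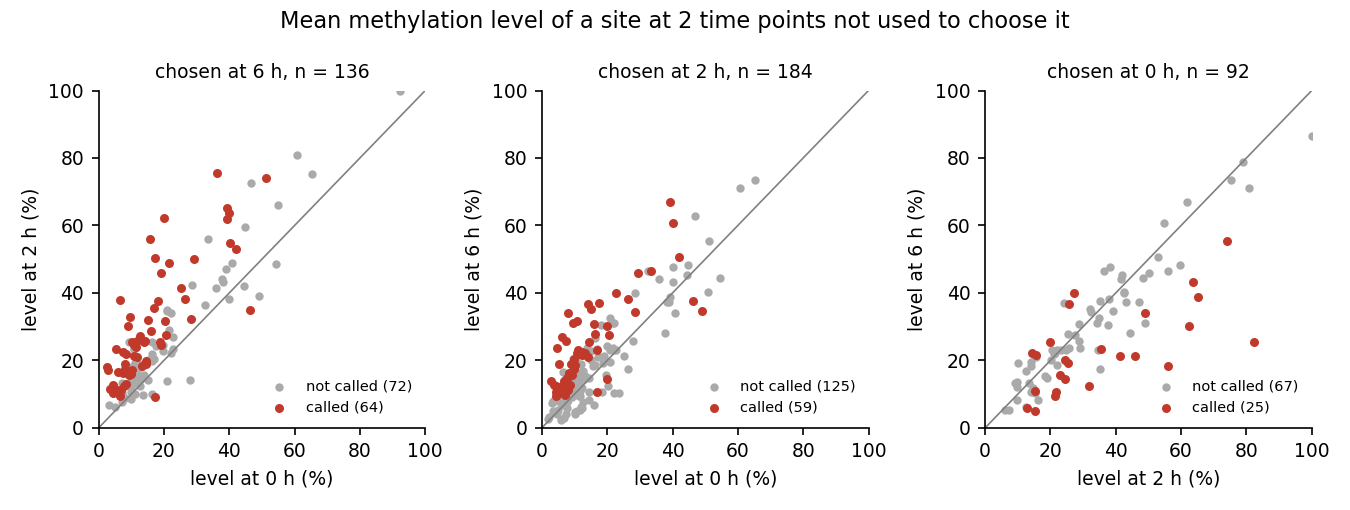
Level of each tested site at the earlier (horizontal axis, percent) and later time point (vertical axis, percent) for the 3 comparisons, as means of 2 libraries; coloured points passed the exact test, grey points did not, and the diagonal marks equal levels. In the comparison of 0 h with 2 h 62 called sites lie above the diagonal and 2 below, in that of 0 h with 6 h 55 and 4, and in that of 2 h with 6 h 5 and 20.

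Between 0 h and 6 h the sites were again mostly higher. Of 184 sites that passed at 2 h, 59 changed, 55 to a higher and 4 to a lower level by the same exact test, where 8.95% of all positions tested were called, 6.32% higher and 2.62% lower. The share over all positions rested on single 6 h libraries. Of 2135 positions 135 were higher and 56 lower, but 90 and 93 without replicate 1 of 6 h and 453 and 33 without replicate 2. The sites gave 43 higher and 4 lower without the former and 56 and 2 without the latter. The other 52 sites were not tested. Isolated sites outside the context were called at 60 of 183. Libraries of the later time point lay wholly above those of the earlier at 93 sites and wholly below at 17, and overlapped at 74, where 10.9% of all positions tested lay wholly above and 9.09% wholly below. The median difference over 174 sites was 3.91 percentage points, with 137 higher and 37 lower, and library medians went from 10.97% and 11.2% to 15.99% and 14.6% (exact permutation test, p = 0.333, the smallest possible). Weighted limma over all passing positions called 3 of the 184 (0.187% of all tested) and the quasi-binomial model 4 (0.375%). Fitted over isolated nuclear positions alone, each called 38, all higher (20.2% and 21.3% of those tested). Replicate 1 of 6 h had the higher unconverted share.

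Rnf157, an E3 ubiquitin ligase enriched in brain, rose at each step (chr11:116359297, minus strand, coding sequence). Its levels were 13.6% and 14.8% before KCl, 25.7% and 25.6% after 2 h and 35.8% and 37.4% after 6 h on 594 to 1133 reads, an increase of 22.4 percentage points over 0 h (exact test adjusted p = 9.83e-47). No library overlapped with one of another time point, and coverage at 6 h (597 and 594 reads) was lower than at 0 h (1106 and 1117 reads). Aes, a short Groucho-family corepressor, did the same over a smaller range (chr10:81565604, plus strand, coding sequence), at 14.7% and 14.1% before KCl, 19.5% and 20.1% after 2 h and 25.4% and 25.6% after 6 h on 2061 to 3206 reads (exact test adjusted p = 1.93e-40). Both were also called by weighted limma over all passing positions (adjusted p = 0.0477 for each). Yipf1, a Golgi membrane protein (chr4:107359682, plus strand, 3′ UTR), rose from a low level, with 5.67% and 6.42% before KCl, 13.8% and 19.2% after 2 h and 29.7% and 24% after 6 h (exact test adjusted p = 4.97e-08). The 3′ UTR site of Clec2l, a C-type lectin-like protein (chr6:38680743, plus strand, 3′ UTR), had 40.8% and 37.5% before KCl, 61.2% and 62.3% after 2 h and 75% and 59% after 6 h (exact test adjusted p = 0.00608). Spg11, which encodes spatacsin (chr2:122111789, minus strand, coding sequence), had 9.30% and 6.90% before KCl, 20.3% and 29% after 2 h and 30.8% and 37.5% after 6 h with 13 and 16 reads at 6 h (exact test adjusted p = 0.0290). Gpr137, a membrane protein of lysosomes (chr19:6939039, minus strand, coding sequence), had 6.90% and 12.3% before KCl, 29.9% and 35.7% after 2 h and 19% and 42.9% after 6 h (exact test adjusted p = 0.00170). These last 3 rested on fewer reads. The call was lost for Clec2l without 6 h replicate 1 (adjusted p = 0.163) or 0 h replicate 1 (0.0529), for Gpr137 without 6 h replicate 2 (0.292) and for Spg11 without any 1 library (0.0699 to 0.162), all by the exact test.

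Lower levels at 6 h were measured in Trio, Pi4ka, Smg1 and Wdr48. Trio, a guanine nucleotide exchange factor that acts in axon guidance (chr15:28025652, minus strand, 5′ UTR), had 43.9% and 54% before KCl, 32.9% and 45.4% after 2 h and 30.3% and 39.3% after 6 h (exact test adjusted p = 0.0315), a call lost with the replicate number as a block (adjusted p = 0.0529, Cochran-Mantel-Haenszel test). Pi4ka, phosphatidylinositol 4-kinase alpha (chr16:17282846, minus strand, coding sequence), had 14.5% and 19.4% before KCl, 15.2% and 14.4% after 2 h and 9.90% and 11.1% after 6 h (exact test adjusted p = 0.0304). Smg1, a kinase of nonsense-mediated decay (chr7:118159617, minus strand, coding sequence), had 18% and 21.7% before KCl, 24.8% and 24.2% after 2 h and 15.8% and 13.1% after 6 h (exact test adjusted p = 0.0254). The values of Wdr48 overlapped between the time points (exact test adjusted p = 0.0118). The separation was narrow in the first 3, and each lost its call by the exact test when either of a pair of libraries was left out. Without 0 h replicate 2 the adjusted p was 0.666 for Trio, 0.544 for Pi4ka and 0.431 for Smg1. It was 0.460 for Trio and 0.136 for Pi4ka without 6 h replicate 1, and 0.1998 for Smg1 without 6 h replicate 2.

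From 2 h to 6 h more sites fell than rose. Among 92 sites that passed at 0 h, 25 changed, 20 to a lower and 5 to a higher level (same exact test), where 10.6% of all positions tested were called, 3.60% lower and 7.02% higher. The balance over all positions turned with single libraries. Of 2195 positions 154 were higher and 79 lower, but 15 and 129 without replicate 1 of 6 h, 96 and 125 without replicate 1 of 2 h and 446 and 70 without replicate 2 of 6 h. The sites gave 7 higher and 18 lower, 4 and 14, and 4 and 15 in the same order. The remaining 144 sites were not tested. Isolated sites outside the context were called at 43 of 109. Levels at 6 h lay wholly below those at 2 h at 36 sites and wholly above at 15, and overlapped at 41, where 9.84% of all positions tested lay wholly below and 6.65% wholly above. The median difference over 86 sites was −2.57 percentage points, with 54 lower and 32 higher, and library medians were 27.5% and 25.6% at 2 h and 23.4% and 23.7% at 6 h (exact permutation test, p = 0.333, the smallest possible). Without replicate 1 of 6 h the median difference was −4.37. Weighted limma called none of the 92 (27 at an unadjusted p of 0.05) and 0.0% of all positions tested, and the quasi-binomial model called none (14 unadjusted, 0.0456% of all tested). Over isolated nuclear positions alone each called 18, 14 of them lower (22.4% and 22.9% of those tested).

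The named falls from 2 h to 6 h were the largest among the 92 tested sites that were called and did not overlap. Trim2 fell by 32.3 percentage points (exact test adjusted p = 1.72e-43), Zbed3 by 37.8 (exact test adjusted p = 3.85e-09), Wac by 26.5 (exact test adjusted p = 9.69e-12) and Btbd9 by 24.5 (exact test adjusted p = 0.000269). Ralgps1, an exchange factor for Ral GTPases, had an intronic site (chr2:33139501, minus strand, intron) at 28.3% and 24.2% before KCl, 94.7% and 70% after 2 h and 31.1% and 20% after 6 h (exact test adjusted p = 4.84e-06). Its 2 h levels came from 19 and 10 reads and its call was lost without 2 h replicate 1 (adjusted p = 0.103, exact test). The rises were smaller. Apart from Rnf157 (exact test adjusted p = 3.99e-09) and Aes (exact test adjusted p = 7.5e-11) they were the non-coding RNA 1500035N22Rik, the adenylyl cyclase Adcy5 and Gtf3a, the transcription factor TFIIIA. 1500035N22Rik had 21.8% and 23.4% before KCl, 31.5% and 22.6% after 2 h and 41.4% and 38.7% after 6 h (exact test adjusted p = 0.000266). Adcy5 (chr16:35156984, plus strand, coding sequence) had 12.7% and 13.4% before KCl, 12.5% and 16.3% after 2 h and 23.6% and 20.6% after 6 h (exact test adjusted p = 0.00041). Gtf3a (chr5:146948843, plus strand, coding sequence) had 12.8% and 11.9% before KCl, 15.7% and 15.3% after 2 h and 20.4% and 22.7% after 6 h (exact test adjusted p = 0.0140). In each of these 3 the 6 h libraries were highest, and each lost its call without 1 library, with adjusted p of 0.131 (1500035N22Rik, without 2 h replicate 2), 0.119 (Adcy5, without 2 h replicate 1) and 0.0829 or 0.130 (Gtf3a, without 2 h replicate 2 or 6 h replicate 2) by the exact test.

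**Figure D4:**
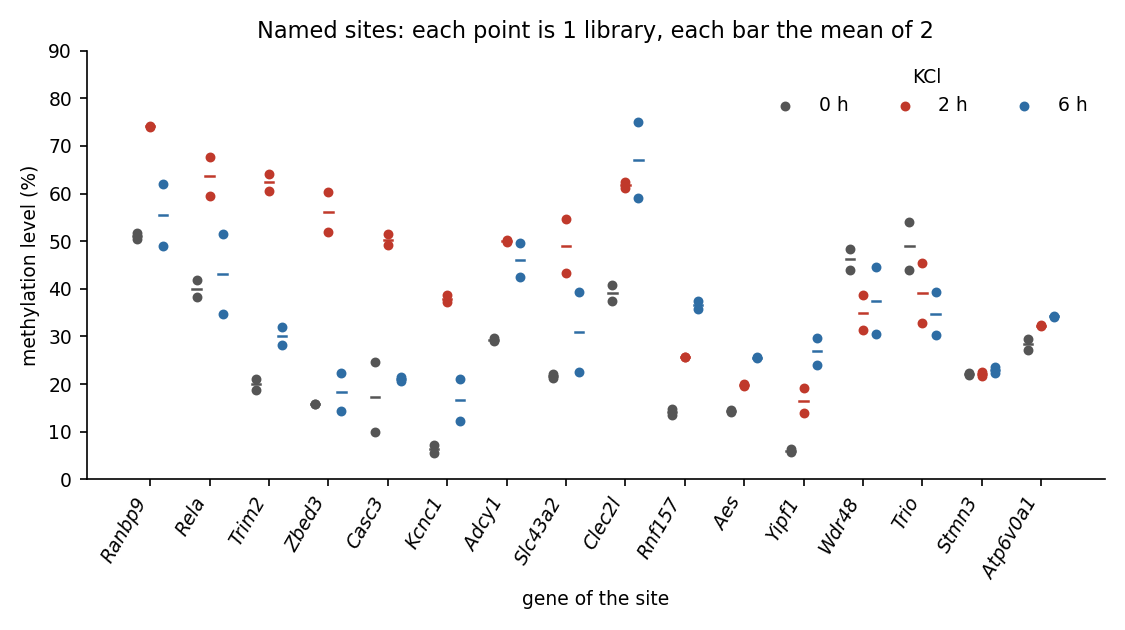
Level (percent) in each library of named sites by hours of KCl; each point is 1 library and each bar the mean of 2. Trim2 peaks at 2 h with 60.6% and 64.1%, Rnf157 rises to 35.8% and 37.4% at 6 h, and Stmn3 stays between 21.6% and 23.7%.

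The isolated sites outside the context changed in the same directions. Median differences at the sites and at these others were 6.78 and 6.83 percentage points for 0 h against 2 h, 3.91 and 2.60 for 0 h against 6 h and −2.57 and −3.47 for 2 h against 6 h. The median of the sites minus that of the others went from −0.851 to −0.523 points between 0 h and 2 h. It went from −0.522 to 0.471 between 0 h and 6 h and from −0.520 to 1.42 between 2 h and 6 h. These are means of 2 libraries, over the sites tested in each comparison. The exact permutation test gave p = 0.333 each, its smallest possible with 2 libraries a group, so this test could not reach 0.05. Over all passing positions the median difference was 0 in each comparison.

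The replicates of one time point gave a partial measure of the error behind these calls. A test of 1 library against 1 has fewer reads than one of summed pairs. The sites tested also differ, so its counts are not on one scale with those above. The same exact test between replicates called 2 of 213 sites at 0 h (0.335% of all positions tested), 2 of 158 at 2 h (3.59%) and 18 of 207 at 6 h (22.1%), 15 of the 18 being higher in replicate 1. The median absolute difference between replicates was 2.70 percentage points before KCl, 2.91 after 2 h and 3.49 after 6 h. The 6 h replicates thus disagreed more often, both at these sites and, by a wider margin, over all positions.

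Of the 236 sites, 197 passed at 2 h, 141 at 6 h and 95 before KCl, and 68 passed at all 3 time points. The 2 h libraries alone gave 75, the 6 h libraries alone 22 and the 0 h libraries alone 10. Another 44 passed at both later time points, 10 before KCl and at 2 h, and 7 before KCl and at 6 h. At 9 of the 201 sites with at least 20 reads in every library both 2 h libraries lay above, and both 6 h libraries below, both 0 h libraries (1.74% of all positions compared lay on opposite sides in this way or its reverse). Passing once did not mean that a site was unmethylated at the other times. Of the 75 seen only at 2 h, 56 had at least 20 reads in the other 4 libraries, with median levels of 7.19% before KCl, 14.3% after 2 h and 8.96% after 6 h. For 17 of the 22 passing only at 6 h these medians were 7.11%, 10.3% and 13.7%, and for 5 of the 10 passing only at 0 h 11.3%, 9.82% and 5.76%. The sites passing only at 0 h with the highest levels were in Hdgfl3, Ralgps1, Kat8, Mical2 and Farp2. In Kat8, a histone acetyltransferase, the level was 15% and 30% before KCl and 3.70% and 17.4% after 2 h. In Mical2, an actin-oxidising enzyme, the levels were 18.6% and 24.1% before KCl, 12.9% and 17.5% after 2 h and 16% and 26.3% after 6 h. Farp2, a guanine nucleotide exchange factor, had 18.4% and 16.7% before KCl and 22.2% and 9.38% after 2 h. At 6 h Kat8 and Farp2 were each listed in 1 library.

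At the level threshold the sites shaded into positions left out. Just inside were Gda, a guanine deaminase, Syngr1, a synaptic vesicle protein, and an intergenic position on chromosome 1 (179960240), whose lower replicate reached 10.0%, 10.2% and 10.2% at their best time point. Just outside were Tcerg1l, the splicing factor Srsf1 and the kinesin Kif21b at 9.9%, 9.7% and 9.7%.

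The files named 210 genes for the sites and gave none for 18, and 135 of the sites fell in gene lists by role, which were drawn up with earlier results known. Among genes of the synapse and transmission 20 sites in 20 of 58 listed genes were found. In the comparison of 0 h with 2 h 7 of 11 tested were higher and none lower, with a median difference of 6.39 percentage points, beside 62 higher of 136 (5.51% of all positions) and a median of 6.99 over all the sites tested and a median of 0 over all passing positions tested. At 6 h against 0 h 7 of 17 were higher, beside 55 of 184 over all the sites (6.32% of all positions). Beside Adcy1, Clcn3 and Kcnc1 the list held Itsn1, an endocytic scaffold (chr16:91915393, plus strand, 3′ UTR), at 18.2% and 14.3% before KCl, 21.4% and 29.2% after 2 h and 20.8% and 35% after 6 h (exact test adjusted p = 0.00772 for 0 h against 6 h). Grin2b, an NMDA receptor subunit (chr6:135713926, minus strand, 3′ UTR), had 8.19% and 11.8% before KCl, 15.7% and 32.4% after 2 h and 4.58% and 4.95% after 6 h, with both 6 h libraries the lowest and the 2 h replicates far apart. Dagla, the lipase that makes the endocannabinoid 2-arachidonoylglycerol, had 7.26% and 7.98% before KCl, 12.1% and 16.4% after 2 h and 4.95% and 6.58% after 6 h, the 2 h libraries standing above the others. Grin2b and Dagla passed only at 2 h, so their peak there is partly set by the choice of sites. Neither was tested in a comparison with 2 h.

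Among 9 sites in axon guidance and adhesion genes 5 of 7 tested were higher at 2 h than at 0 h, with a median difference of 11.6 percentage points (62 of 136 and 6.99 over all the sites, 5.51% and 0 over all positions). At 6 h against 0 h 2 of 8 were higher and 1 was lower, with a median difference of 5.61 (55 and 4 of 184 and 3.91 over all the sites, 6.32% higher and 2.62% lower over all positions, or 90 and 93 of 2135 without replicate 1 of 6 h). Unc5d, a netrin receptor (chr8:28719778, minus strand, coding sequence), had 19.8% and 16.4% before KCl, 40.9% and 34.1% after 2 h and 32.1% and 28.9% after 6 h (exact test adjusted p = 0.00148). Sema3f, a secreted semaphorin (chr9:107685411, minus strand, coding sequence), had 12% and 15.9% before KCl, 29.5% and 21.5% after 2 h and 29.1% and 18.4% after 6 h (exact test adjusted p = 4.21e-05). Both kept levels above 0 h at 6 h in every library. Ephb3, an ephrin receptor, had 26.1% and 6.06% before KCl, 29.5% and 30% after 2 h and 9.80% and 3.92% after 6 h and passed only at 2 h. Among 19 sites of the cytoskeleton and motors 5 of 14 were higher at 2 h and 6 of 14 at 6 h than at 0 h. From 2 h to 6 h 2 of 9 were lower and none higher, while the median difference was 3.34 percentage points, of opposite sign (20 of 92 lower and a median of −2.57 over all the sites, 3.6% lower over all positions, or 129 of 2195 without replicate 1 of 6 h). Tagln3, a neuronal calponin-family protein, had 29.6% and 42% before KCl, 40.4% and 42.7% after 2 h and 42.7% and 45.4% after 6 h. The levels in Myo6, the minus-end-directed myosin, were 46.9% and 42.1% before KCl, 50% and 33.9% after 2 h and 54.5% and 36.1% after 6 h. Neither passed the test in any comparison.

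Kinases and phosphatases held 15 sites, with 5 of 11 tested higher at 2 h and 6 of 14 higher and 1 lower at 6 h than at 0 h. The counts over all the sites were 62 higher and 2 lower of 136 at 2 h (5.51% of all positions higher) and 55 higher and 4 lower of 184 at 6 h (6.32%). Tab1, an activator of the kinase TAK1 (chr15:80160366, plus strand, 3′ UTR), had 21.6% and 13.5% before KCl, 27.3% and 21.3% after 2 h and 34.5% and 39.5% after 6 h (exact test adjusted p = 0.0175). Lmtk3, a membrane-bound kinase, had 22% and 20% before KCl, 39.2% and 30% after 2 h and 18.4% and 27.7% after 6 h and was not called. Transcription and chromatin genes held 23 sites, of which 5 of 11 were higher at 2 h and 4 of 22 at 6 h than at 0 h. The 14 sites of the ubiquitin pathway gave 4 higher and 1 lower of 8 at 2 h, and 1 higher and 3 lower of 6 from 2 h to 6 h (5 higher and 20 lower of 92 over all the sites, 7.02% and 3.6% of all positions, or 15 and 129 of 2195 without replicate 1 of 6 h). Usp3, a histone deubiquitinase (chr9:66592957, minus strand, 5′ UTR), had 66.7% and 42.9% before KCl, 70.6% and 61.5% after 2 h and 44.9% and 34.7% after 6 h, with 14 to 39 reads in the 4 earlier libraries. Klhl26, a Kelch-family protein, had 40.3% and 37.6% before KCl, 47.5% and 46.4% after 2 h and 39.1% and 35.4% after 6 h and was not called.

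Genes of the secretory and vesicle pathway held 13 sites, 4 of 10 tested being higher at 2 h and 4 of 11 at 6 h than at 0 h. Like the metabolism and RNA lists that follow, these stand beside 62 of 136 and 55 of 184 over all the sites and 5.51% and 6.32% of all positions. Atp6v0a1, a membrane subunit of the vacuolar proton pump (chr11:101027288, plus strand, coding sequence), had 27.2% and 29.5% before KCl, 32.2% and 32.3% after 2 h and 34.2% and 34.4% after 6 h on 2396 to 3790 reads (exact test adjusted p = 3.9e-05 for 0 h against 2 h and 8.32e-10 for 0 h against 6 h). Its change was small beside the others and its replicates lay within a few points of each other. Sec61a1, the channel of the translocon (chr6:88503789, minus strand, 3′ UTR), had 39.5% and 42% before KCl, 47.5% and 50.5% after 2 h and 35.6% and 32.6% after 6 h (exact test adjusted p = 8.43e-06 for 2 h against 6 h). Emc3, of the ER membrane complex, had 46.7% and 28.6% before KCl, 37.5% and 51% after 2 h and 34% and 22.4% after 6 h. The levels in Rab1a, a GTPase of ER-to-Golgi transport, were 12.1% and 29.8% before KCl, 30.2% and 39.7% after 2 h and 28.9% and 36.4% after 6 h. Neither was called. Metabolism and transport genes held 15 sites, with 3 of 8 higher at 2 h and 4 of 12 at 6 h than at 0 h. Gpd2, the mitochondrial glycerol-3-phosphate dehydrogenase (chr2:57289895, plus strand, coding sequence), had 27.1% and 25.5% before KCl, 35.1% and 41% after 2 h and 43.7% and 32.9% after 6 h (exact test adjusted p = 1.69e-07 for 0 h against 2 h). Icmt, a carboxyl methyltransferase of prenylated proteins (chr4:152303530, plus strand, 3′ UTR), had 20.5% and 13.3% before KCl, 38.6% and 32.5% after 2 h and 24.7% and 22.1% after 6 h (exact test adjusted p = 0.000208). Cyp46a1, the cholesterol 24-hydroxylase of neurons, had 18.6% and 34.1% before KCl, 32.1% and 38.5% after 2 h and 15.2% and 20% after 6 h and was not called. Of 7 sites in RNA and translation genes 1 of 5 was higher at 2 h, the Casc3 site, and 2 of 6 at 6 h than at 0 h. In Mrps10, a mitochondrial ribosomal protein, the levels were 4.17% and 17.6% before KCl, 20.4% and 26.6% after 2 h and 35.7% and 27.6% after 6 h (exact test adjusted p = 0.0105 for 0 h against 6 h). No site lay in any of the 15 listed genes for m5C enzymes and readers.

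In 8 genes more than 1 site was found, and the members of a pair often differed in level. In Ranbp9 the site 81 nt downstream of the first (chr13:43480989, minus strand, 5′ UTR) had 7.60% and 8.37% before KCl, 19.2% and 18.9% after 2 h and 14.7% and 12.7% after 6 h, low beside the first but also highest at 2 h (exact test adjusted p = 9e-05). In Meg3 the second site (chr12:109566729, plus strand, non-coding exon) had 36.1% and 30.8% before KCl, 42.1% and 70% after 2 h and 43.5% and 49.3% after 6 h. Kif26b had a coding site at 35.6% and 44.4% before KCl, 34.4% and 41.9% after 2 h and 49.1% and 46.2% after 6 h and another at 2.29% and 2.34% before KCl, 10.3% and 13.5% after 2 h and 3.94% and 2.69% after 6 h, of which only the second passed at 2 h alone. The coding site of Clec2l (chr6:38663248, plus strand, coding sequence) had 10.04% and 9.63% before KCl, 13% and 8.28% after 2 h and 15.6% and 10.3% after 6 h, far below its 3′ UTR site. The 3′ UTR site of Map4 (chr9:110082400, plus strand, 3′ UTR) had 24.7% and 14.6% before KCl, 20.7% and 25.1% after 2 h and 16% and 15.3% after 6 h, far below its intronic one at 2 h. Lasp1, an actin-binding protein, had a 3′ UTR site at 7.56% and 9.37% before KCl, 14.9% and 10.9% after 2 h and 12.8% and 12.6% after 6 h (exact test adjusted p = 3.9e-05 for 0 h against 2 h). Its other site was not listed in 1 library of 0 h and had 16.7% and 11.1% at 2 h. Pfkp, the platelet-type phosphofructokinase, had 10.5% and 10.9% before KCl, 11.4% and 15.4% after 2 h and 13.6% and 13.2% after 6 h at one site and 8.53% and 11.5% before KCl, 6.69% and 17.1% after 2 h and 11.2% and 12.6% after 6 h at the other. The sites of Camk2n2, an inhibitor of CaM kinase II, were adjacent cytosines read by the same molecules and had nearly the same levels, 17.9% and 29.4% before KCl, 18.9% and 20.9% after 2 h and 12.5% and 8.33% after 6 h at one of them.

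Cytosines near the sites were converted almost completely where listed. This is partly set by the rule, which allows fewer than 3 passing positions within 75 nt of a site. The pooled level of the other listed cytosines within 75 nt had a median of 0.634% to 0.851% by library, with 201 to 213 of the sites having such neighbours and a median of 3 to 4 each. In a library 6 to 14 sites had a neighbour at 10% or above. Since positions without a C read are not listed, these medians stand above the true share. Around Aes the pooled level was 0.0804%, around Rnf157 0.159% and around Meg3 0.531%. It was 11.9% around Ralgps1 and 5.89% around the intronic Map4 site.

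Changes in level and in coverage ran weakly in opposite directions. Across sites the log2 change in coverage and the change in level had a Pearson r of −0.317 (n = 132) for 0 h against 2 h, −0.181 (n = 174) for 0 h against 6 h and −0.369 (n = 86) for 2 h against 6 h. These are correlations across sites that share libraries and depth, given as a description. Median coverage of the sites changed by −0.13, −0.28 and −0.14 on the log2 scale. The part of changing RNA abundance in the level changes was not tested.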

How the data were processed

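Poly(A) RNA of 6 cultures was bisulfite converted, sequenced, and aligned and called per strand by the authors with meRanTK after trimming with Trim Galore (GRCm38, called mm10 in the submitters' processing notes, which also name R 4.1.1). The deposited lists give, per library and cytosine, coverage and methylated reads as counts and the level as a fraction, which was recomputed from the counts and is printed as a percentage. The sites and gene lists were chosen with earlier results of these data known. The study's later filters (unconverted clusters per read, signal to noise, predicted structure) were not applied here, apart from the limit on passing neighbours within 75 nt.

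Time points were compared by Fisher's exact test, two-sided, on reads summed over replicates (the study's methods name Fisher's test but not how replicates entered it), with Benjamini-Hochberg adjustment at 0.05 over all positions of any class that passed at the remaining time point and had at least 10 reads in the 4 libraries. This test leaves out the spread between replicates. Medians over sites were compared by exact permutation over libraries, and shares have Wilson 95% intervals. Alternatives were limma on log2((C + 0.5)/(T + 0.5)) weighted by counting precision, a moderated quasi-binomial model, a Cochran-Mantel-Haenszel test with a replicate block, at least 20 or 50 reads, a difference of at least 10 percentage points, G also at +4, sites passing at any time point, stricter thresholds, and each library left out. The tests were run on simulated data with known changes. With counting error alone all of them recovered most changes with few false calls. With added spread between replicates (overdispersion 0.02) the exact test and the block made more false calls than true ones. In that setting limma recovered none and the quasi-binomial model few. The size of the spread was not fitted to these data, in which limma called 41 of 136 sites for 0 h against 2 h. Counts from the exact test are open to such spread and low counts from the models may reflect low power, to an extent that was not measured. The limma weights and the restriction of the quasi-binomial prior to informative positions were added after such a test recovered nothing without them, and both models over isolated positions alone after seeing the data.

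Named were the 10 highest mean levels with at least 20 reads throughout, up to 5 increases and 5 decreases per comparison among called sites whose libraries did not overlap, genes with more than 1 site, 5 sites passing only at 0 h, 3 sites either side of the level threshold, up to 4 per role list, and the deepest and shallowest site. Nisch, Wdr48 at 6 h and the sites with opposed changes were named after their values were seen. Positions were annotated with GENCODE M21, and all 14484 of 14484 contexts compared were the same in the files and the reference. Spliced windows were folded with RNAfold at 37 °C (70 °C and 50 nt each side as alternatives). Programs were Python 3.11.15, pandas 2.3.3, scipy 1.17.1, statsmodels 0.14.6, ViennaRNA 2.7.2, R 4.3.3 and limma 3.58.1.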

Additional observations from a re-analysis of the deposited data

Results flagged for a closer look

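At 9 of the 201 sites with at least 20 reads in every library, both 2 h libraries were above and both 6 h libraries below both 0 h libraries, where 1.74% of all positions compared showed such opposed moves. In Glg1, a Golgi glycoprotein, the 2 h level differed from the 0 h level by 16.3 percentage points and the 6 h level by −3.75. The same pair of differences was 14.1 and −5.24 in Grin2b, an NMDA receptor subunit, and 11.4 and −8.03 in Cdca4. It was 8.23 and −6.63 in Sec61a1, of the translocon, and 6.59 and −1.85 in Dagla, of endocannabinoid synthesis. In Eif4ebp1, a translational repressor, it was 5.24 and −3.81. In Fahd2a it was 4.71 and −5.59, in Smg1 4.68 and −5.34 and in Dmwd 3.55 and −0.872. Of these, Glg1 and Cdca4 passed the exact test from 0 h to 2 h (adjusted p = 1.42e-15 and 0.0281). The difference between the later time points was tested at the 6 of these sites that passed at 0 h, and each was lower at 6 h than at 2 h by the exact test (adjusted p from 4.67e-25 in Glg1 to 0.0400 in Dmwd), and none by the quasi-binomial model over all passing positions (0.256 or higher). It was not tested in Grin2b, Dagla and Eif4ebp1. The 9 sites were picked on these same levels, so their direction is set by the choice.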

How the results depend on the processing

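Each median difference kept its direction under the alternatives run, as did the balance of higher and lower calls in each count, except from 2 h to 6 h with weighted limma and the quasi-binomial model, which called none. The sites passing at any time point were admitted by the levels compared, so their counts and direction are partly set by the rule and support nothing. Sites called for 0 h against 2 h (64) numbered 41 with weighted limma, 31 with the quasi-binomial model, 39 with a difference of at least 10 percentage points, 29 with G also at +4, 110 over sites passing at any time point and 45 to 56 with 1 library left out. For 0 h against 6 h (59) they numbered 3, 4, 27 and 24 under the first 4 of these, 38 with either model over isolated nuclear positions alone, and 46 to 58 with 1 library left out. For 2 h against 6 h (25) they numbered 0 with weighted limma (27 unadjusted) and 0 with the quasi-binomial model (14 unadjusted), 11 with G also at +4, 77 over sites passing at any time point and 18 to 25 with 1 library left out. Median differences were 8.56 as a mean over sites and 5.97 to 6.99 with 1 library left out for 0 h against 2 h, and 3.33 to 4.81 for 0 h against 6 h. For 2 h against 6 h they were −3.99 as a mean, −3.52 at any time point and −4.37 to −1.84 with 1 library left out. The number of sites was 103 at a level of at least 20%, 125 with G also at +4 and 265 to 386 with 1 library left out, the most without 2 h replicate 2. Their median level (15.4%) was 13.8% with 50 or more reads, 25.2% at a level of at least 20%, 13.9% with G also at +4 and 13.3% to 15.3% with 1 library left out. At a level of at least 20%, G at +4 took 45.6% and a purine at +1 78.6%. The cytosine's pairing was 0.464 at 70 °C, where the reference was not folded. Of 25 calls at named sites, 5 were kept by weighted limma over all passing positions and 19 over isolated ones alone. The labels do not say that replicate numbers pair cultures, and deviations of same-numbered libraries correlated at 0.136, −0.00665 and 0.131. With the numbers as a replicate block 66, 61 and 26 sites were called and the median differences were 6.91, 3.79 and −2.06. The Trio call was lost (adjusted p = 0.0529, Cochran-Mantel-Haenszel). Coverage limits the intronic and other shallow sites, where a few reads move a level by several points.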
